A study of Nothobranchius furzeri with 15 samples.

Results

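Liver RNA of male turquoise killifish (Nothobranchius furzeri, an annual fish used in ageing research) given rotenone at 15 pM was compared with liver RNA of males given DMSO, the solvent control. Members were taken by the labels alone: 5 libraries of rotenone 15 pM and 5 of DMSO, so 10 of the 15 libraries of the series. All 10 came from whole liver of the inbred GRZ strain at 9 weeks of age, and the labels give no genetic change in any of them. The other 5 libraries, from rotenone at 150 pM, entered only where named. Libraries carry the numbers of the sample titles, 1 to 5 in both groups. The labels give neither the length of exposure nor a tank, family or sequencing batch, and the groups and any such differences cannot be told apart. Nothing in them ties each library to its own fish, so p-values measure only the spread among these libraries, part of which may be technical.

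Rotenone is a plant-derived inhibitor of complex I, the enzyme that passes electrons from NADH to ubiquinone at the entry of the mitochondrial respiratory chain and pumps protons as it does so. Hepatocytes depend on this chain to oxidise fatty acids and to supply energy for making glucose, urea and plasma proteins. The comparison asked which liver transcripts differ from solvent controls at the lower of the study's 2 doses.

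The files name genes by identifiers without symbols, and 0 of 26739 identifiers were found among the 38438 genes of the reference table. Complex I subunits, stress genes and cell type markers could therefore not be picked out, and the labelled tissue could not be checked against hepatocyte markers. Genes are described by abundance, length, size of change and behaviour across libraries, and 4 identifiers are named. In whole tissue, fewer cells of a type and less RNA per cell cannot be told apart.

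Total counts ranged from 24251062 to 35672589 per library, with DMSO library 1 the deepest and 15 pM library 4 the shallowest of the 10. CPM is a count scaled to a common library total, and a gene without a count could still have had up to 3 counts, or 0.0841 to 0.124 CPM, by counting error alone. One library stood apart before any test was made. The median correlation of log2 CPM between 15 pM library 4 and the rest of its group was 0.847, while the other 9 libraries had values from 0.95 to 0.972 with theirs. On the first principal component, which held 37.7% of the variance, library 4 lay at -121 and the 9 others between -28.4 and 59.6. On the second component, which held 25.5%, it lay with its group: the DMSO libraries took values of 20 to 53.9 and the 15 pM libraries -53.4 to -19.7. Results that rest on it are therefore given with and without library 4.

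**Figure D1:**
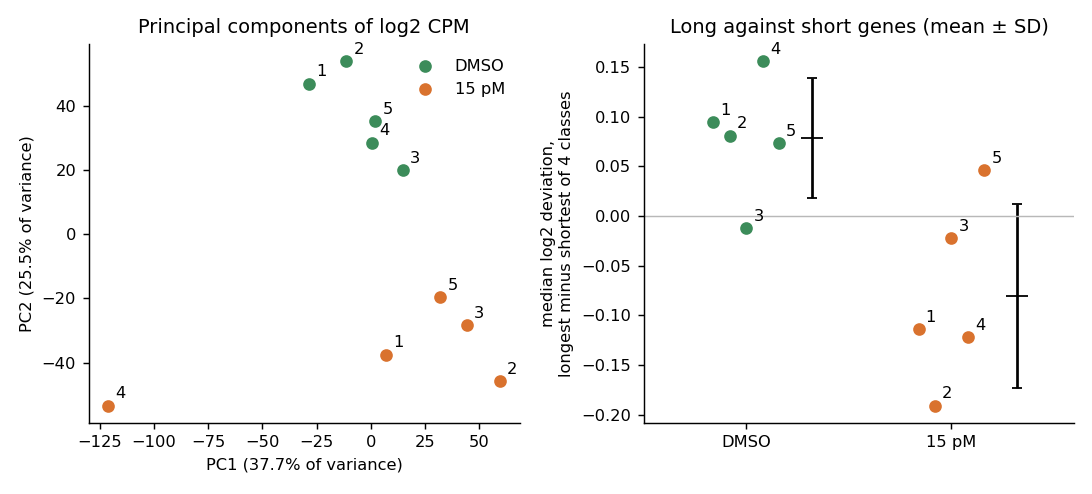
The left panel plots the 10 libraries on the first 2 principal components of log2 CPM, and the right panel plots for each library the median log2 deviation of the longest of 4 length classes of genes minus that of the shortest. Green points are DMSO, orange points 15 pM, numbers are library numbers and bars are mean ± SD (n = 5); library 4 lies at -121 on the first axis, while the groups do not overlap on the second.

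Most genes that changed at 15 pM were lower than in DMSO. Of 15313 genes tested, 236 fell and 40 rose (edgeR quasi-likelihood test, two-sided, adjusted p under 0.05), which is 1.8% of the genes tested, with 1.54% lower and 0.261% higher. The number of rises depended on the method. It was 13 with library totals in place of TMM, 26 with limma on RPKM recomputed from the counts (plus 0.1) and 391 with DESeq2. Falls in the same analyses numbered 186, 371 and 912. The median log2 fold change was -1.59 for the falls and 0.92 for the rises. Over all tested genes it was 0.06, and 43.3% of them had a negative value. At an unadjusted p under 0.05 the balance was 1652 lower and 1033 higher genes, together 17.5% of those tested. The smallest adjusted p was 0.000176.

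Without library 4, 974 genes fell and 312 rose out of 15520 tested, or 8.29% (6.28% lower and 2.01% higher). The median log2 fold changes of the called genes were then -1.49 and 0.74. The share of higher genes among all called genes was 14.5% with library 4 and 24.3% without it. The gain came with a smaller spread: the biological coefficient of variation, edgeR's estimate of the spread between libraries over all genes, was 0.38 with library 4 and 0.292 without it.

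**Figure D2:**
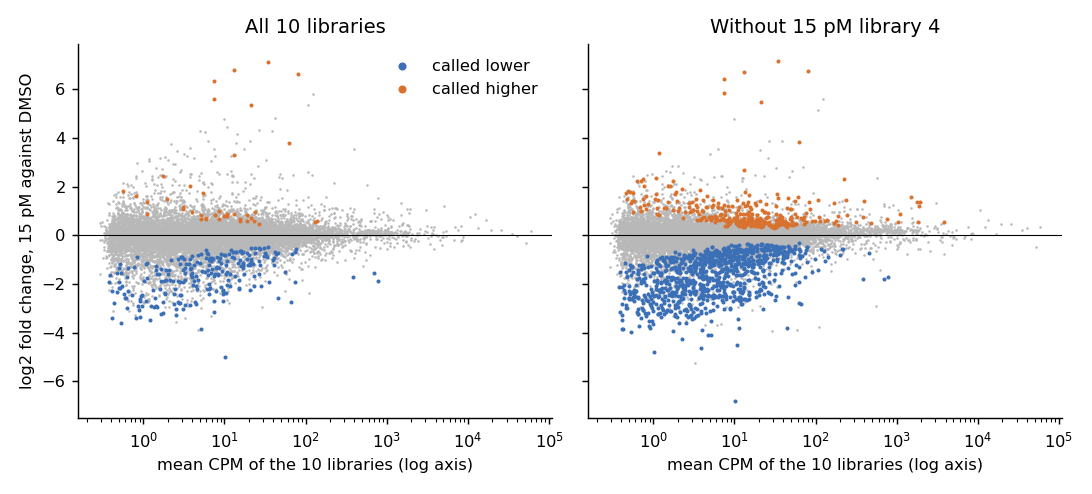
Each point is 1 of the 15313 genes tested with all 10 libraries, placed by its mean CPM (log axis) and its log2 fold change at 15 pM against DMSO. Blue points were called lower and orange points higher, and grey points were not called. The left panel, with all 10 libraries, holds 236 blue and 40 orange points, and both colours are far denser without library 4 on the right, where points lack the 15 called genes that entered only the second fit.

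Falls were large and rises mostly small, apart from a few genes that rose steeply. Of the 236 genes that fell, 182 were at least 2-fold lower, 80 at least 4-fold and 15 at least 8-fold. Of the 40 that rose, 17 were at least 2-fold, 10 at least 4-fold and 8 at least 8-fold higher. Without library 4, 683 of 974 falls and 113 of 312 rises were at least 2-fold. The 8 steepest rises went from group means between 0.187 and 8.29 CPM in DMSO, with a median of 0.743 CPM, to means between 14.4 and 157 CPM at 15 pM, with a median of 33.3 CPM. In these 8 genes the 150 pM means ran from 0.068 to 6.19 CPM, and 6 of the 8 lay within the range of the DMSO libraries. The 15 steepest falls started at a median of 3.03 CPM in DMSO and stood at 0.318 CPM at 15 pM. At 150 pM their median was 0.327 CPM, and the mean lay below every DMSO library in 10 of the 15, above every DMSO library in 3 and within their range in 2, with means up to 27.4 CPM. Of the 23 genes that rose by less than 2-fold, the 150 pM mean lay above every DMSO library in 14, below in 0 and within the range in 9. Of the 54 genes that fell by less than 2-fold, the 150 pM mean lay above every DMSO library in 26, below in 8 and within the range in 20. Both doses are set against the same 5 DMSO libraries. The shares of all tested genes with a 150 pM mean outside the DMSO range are not set beside these counts. They are therefore a description and do not show a response particular to these genes.

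Genes with small called changes were the most even ones among libraries. The 23 genes that rose by less than 2-fold had a median SD of 0.147 in DMSO and 0.178 at 15 pM, in log2 CPM, and the 54 that fell by less than 2-fold had 0.177 and 0.195. Over all tested genes these medians were 0.251 and 0.434, and the second was 0.293 without library 4. With library 4 included, the spread at 15 pM exceeded that in DMSO in 11855 of 15313 genes, and these genes were not counted without library 4. The called set is thus a selection of genes that varied little for the size of their change, and its fold changes do not describe the genes that were not called.

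Named by the rule for the largest rise at a mean of 5 CPM or more, Nfu_g_1_023228 was nearly silent in controls. It stood at 0.432, 0.217, 0.894, 0.479 and 0.396 CPM in DMSO libraries 1 to 5, from 6 to 23 counts. In 15 pM libraries 1 to 5 it stood at 188, 13.4, 18.2, 62.8 and 58.6 CPM. All 15 pM libraries were higher than all controls, library 1 was the highest, and library 4 lay inside its group. The change came to 7.14 on the log2 scale (SE 0.85, edgeR adjusted p = 0.0126). Without library 4 it was 7.17 (SE 0.89, edgeR adjusted p = 0.0111). At 150 pM the gene ran from 0.0337 to 0.62 CPM, with 4 libraries inside the range of the controls and 1, resting on 1 count, below it. The gene passed in 28 of 31 alternative analyses. Without DMSO library 5 the edgeR adjusted p was 0.0654. With a replicate block, which pairs libraries by number, it was 0.142, and 0.0645 when number 4 was also left out of both groups.

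Nfu_g_1_005810 was the most abundant of the genes that rose, and its change was small and even. It stood at 94.1, 115, 119, 116 and 115 CPM in DMSO libraries 1 to 5, and at 178, 163, 159, 143 and 187 CPM in 15 pM libraries 1 to 5. Library 4 was the lowest of its group, though above every control. The change came to 0.57 on the log2 scale (SE 0.13, edgeR adjusted p = 0.0497), just inside the threshold. It was 0.62 (SE 0.11, edgeR adjusted p = 0.0153) without library 4. It passed in 12 of 31 alternative analyses, and leaving out any library but 15 pM library 4 ended the call, with edgeR adjusted p from 0.0651 (without 15 pM library 3) to 0.135 (without DMSO library 2).

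Nfu_g_1_012951 had the largest fall at a mean of 5 CPM or more. Its DMSO libraries 1 to 5 were uneven, at 4.78, 49.6, 27.1, 4.42 and 13.8 CPM. At 15 pM it stood at 0.0384, 0.147, 0.0822, 2.4 and 0.41 CPM in libraries 1 to 5, and 4 of these 5 values rest on 1 to 11 counts. Library 4 held 64 counts, the highest of its group, and still lay below every control. On the log2 scale the change was -5 (SE 1.08, edgeR adjusted p = 0.0487), against -6.82 (SE 1.02, edgeR adjusted p = 0.0134) without library 4. Leaving out any library but 15 pM library 4 ended the call, with edgeR adjusted p between 0.0605, on dropping DMSO library 4, and 0.115, on dropping 15 pM library 5. It was lost in 16 of 31 alternatives, among them limma voom (adjusted p = 0.0741), and its log2 fold change ran from -7.08 to -2.12 over them.

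Nfu_g_1_020030 was the most abundant gene that fell. DMSO libraries 1 to 5 held 809, 1269, 1331, 1567 and 1157 CPM, and 15 pM libraries 1 to 5 held 263, 581, 371, 194 and 270 CPM. The groups did not overlap, and library 4 was the lowest of all. On the log2 scale the change was -1.87 (SE 0.31, edgeR adjusted p = 0.0269), against -1.72 (SE 0.28, edgeR adjusted p = 0.0137) without library 4. At 150 pM this gene was split, with 944, 2061 and 2229 CPM in libraries 8, 9 and 10 but 61.6 and 11.1 CPM in libraries 11 and 12. In a fit of all 15 libraries, which takes part of its spread from that group, the edgeR adjusted p was 0.281. The call also ended without DMSO library 1, 2 or 5 or 15 pM library 1 or 5, with edgeR adjusted p of 0.0622 to 0.0814.

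**Figure D3:**
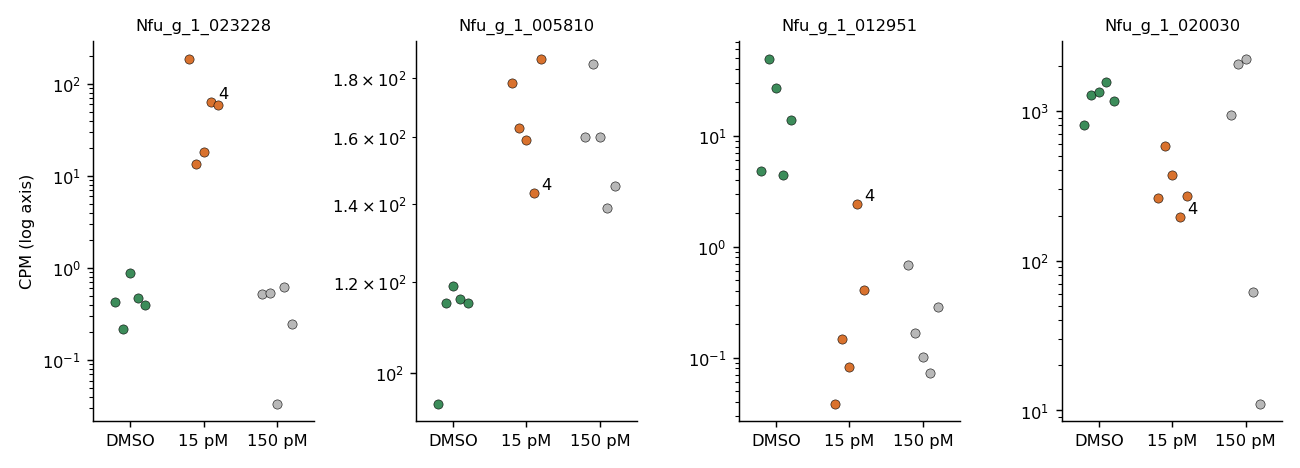
CPM (log axis) of the 4 named genes in each library, with green points for DMSO, orange for 15 pM and grey for 150 pM (5 libraries each, 15 pM library 4 marked). In all 4 genes the 15 pM points lie clear of the DMSO points, and Nfu_g_1_020030 spreads from 11.1 to 2229 CPM at 150 pM.

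Most called genes had a mean under 100 CPM, as did most genes tested. Among genes under 1 CPM, 34 fell and 2 rose of 1670, or 2.16%. Among genes with a mean of 1 to 10 CPM, 124 fell and 19 rose of 6854, or 2.09%. Among those of 10 to 100 CPM, 75 fell and 17 rose of 5902, or 1.56%. Of 750 genes at 100 to 1000 CPM, 3 fell and 2 rose, or 0.667%. Of 137 genes over 1000 CPM edgeR called 0 with the 10 libraries, where 1.8% of all genes tested were called. At an unadjusted p under 0.05 edgeR had 6 of the 137, all higher, against 17.5% of all genes tested. DESeq2 and limma voom also called 0 of the 137. Limma voom with quality weights on the 10 libraries called 3 of the 137 higher and 0 lower. Without library 4, edgeR called 8 of these 137 higher and 0 lower. That is 5.84% called, against 8.29% of all genes tested in that fit and 4% at 100 to 1000 CPM. At an unadjusted p under 0.05 that fit had 25 of the 137, 1 of them lower. Over all 15520 genes tested it had 2400 lower and 1691 higher. In genes of 1 to 10 CPM, 538 then fell and 96 rose of 6859, or 9.24%. The median standard error of the fold change over the 137 abundant genes was 0.276 with library 4 and 0.177 without it, against 0.184 and 0.145 in genes of 10 to 100 CPM.

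Summed over the 236 genes that fell, DMSO libraries held 5556 to 7896 CPM and 15 pM libraries 2051 to 2578 CPM. Leaving Nfu_g_1_020030 out of the sum, these ranges were 4282 to 6627 CPM and 1614 to 2301 CPM. The 40 genes that rose summed to 438 ± 33.8 CPM in DMSO and 1139 ± 165 CPM at 15 pM (SD, n = 5 each). Without library 4 the 15 pM sums were 2276 ± 223 CPM for the falls and 1146 ± 190 CPM for the rises (SD, n = 4). These sums are of genes chosen by the same contrast and describe how little of the liver's RNA the called genes made up, under 1% in every library.

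Long genes were lower relative to short genes at 15 pM, a difference just inside the threshold. Lengths were recovered from the authors' tables, and tested genes were divided into 4 classes of nearly equal size. Relative to the mean of the 10 libraries, the longest class (4902 bases and over) minus the shortest class (1416 bases and under) had a median log2 deviation of 0.0945, 0.0811, -0.0122, 0.156 and 0.0736 in DMSO libraries 1 to 5. The same value was -0.114, -0.191, -0.0226, -0.122 and 0.0464 at 15 pM. DMSO was higher except that 15 pM library 5 exceeded DMSO library 3, and library 4 lay inside its group. The means were 0.0786 ± 0.0602 and -0.0806 ± 0.0928 (SD, n = 5 each). They differed by -0.159 (two-sided exact permutation test, p = 0.0159, adjusted over 3 such tests p = 0.0476).

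In the longest class 80 of 3827 genes fell and 4 rose, and in the shortest 45 of 3841 fell and 14 rose. Over all genes tested 1.54% fell and 0.261% rose. The classes between had 63 falls of 3817 and 48 of 3828, the shorter one first, so falls did not increase steadily with length. Median log2 fold changes over all genes of a class were 0.11, 0.08, 0.08 and -0.06 from shortest to longest. Without library 4, 305 of 3827 genes of the longest class fell and 176 of 3841 of the shortest, against 6.28% of all genes tested in that fit. The long minus short difference between the groups was then -0.149 (exact permutation test, p = 0.0238, adjusted over the 3 tests p = 0.0714). With 1 library left out the adjusted p stayed at 0.0476 for DMSO library 3 and 15 pM library 5 only. It was 0.0714 without DMSO library 4 or 15 pM library 1, 3 or 4, and 0.0952 without DMSO library 1, 2 or 5 or 15 pM library 2. RNA quality was not analysed here, and the part of RNA length in the calls was not tested.

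The 2 other values compared by library missed the threshold. The 10 most abundant genes took 28.3 ± 1.12% of counts in DMSO and 29.8 ± 2.22% at 15 pM (SD, n = 5 each, exact permutation test, two-sided, p = 0.222, adjusted p = 0.222). Genes at or above 1 CPM, here scaled by library totals without TMM factors, numbered 13558 ± 373 in DMSO and 13142 ± 365 at 15 pM (exact permutation test, two-sided, p = 0.119, adjusted p = 0.179). Without DMSO library 4 the difference in this number was -504 genes (exact permutation test, p = 0.0476, adjusted p = 0.0714), and without 15 pM library 4 it was -495 (exact p = 0.0714, adjusted p = 0.107). In both measures library 4, at 30.3% and 13456 genes, lay within the range of the rest of its group for the share and slightly above it for the number of genes, where the others had 12528 to 13365.

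Library 4 lay outside the other 9 libraries in many genes, in both directions. It was the lowest of the 10 in 4247 genes and the highest in 4032, whereas any other library was lowest in 627 to 2176 and highest in 620 to 1847. By a margin of at least 4-fold it was lowest in 370 genes and highest in 105, against at most 26 and 9 for any other library. The 370 genes together held 8467 CPM in library 4 and 81943 to 171417 CPM in the others, and 12 of them averaged over 1000 CPM elsewhere. The most abundant of them stood at 1938 CPM in library 4 and at 23250 to 68179 CPM in the other 9. The 105 genes held 39313 CPM in library 4 and 3247 to 5897 CPM elsewhere, of which 1 gene gave 23850 CPM. With the 10 libraries edgeR called 0 of the 370 and 0 of the 105, against 1.8% of all genes tested. At an unadjusted p under 0.05 it had 7 of the 370, all lower, and 33 of the 105, all higher. Over all genes tested this share was 17.5%, above that of the 370 and below that of the 105. DESeq2 called 2 and 4 of them, and limma voom 1 and 0. The choice of these genes bears on these numbers in 2 ways. A library at least 4-fold outside the others widens the spread of its group, and it also moves the mean of its group. In the 105 genes the median log2 fold change was 1.57 with library 4 and -0.161 without it. A weight that limma estimates from each library's fit was 0.124 for library 4 and 0.678 to 2.47 for the others.

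All 236 falls and all 40 rises were called again without it, in the same direction, with adjusted p up to 0.0366 and 0.0254. Their median log2 fold changes were -1.59 and 0.92 with it and -1.58 and 0.90 without it. The 9 libraries of the second fit had helped choose these genes, which by itself favours the same calls, signs and sizes. Library 4 was below the DMSO mean in all 236 and above it in all 40, as each 15 pM library was. It was the lowest of the 10 libraries in 32 of the 236, fewer than library 2 (132) and library 1 (40) and more than library 3 (18) and library 5 (13). Among the 15 pM libraries it was the highest, so the least lowered, in 86 of the 236, against 6 to 77 for the others. Among the 40 rises it was the highest of the 10 in 16, more than the 4 to 8 of the other 15 pM libraries, and its median log2 deviation from the DMSO mean was the largest, at 1.18 against 0.69 to 1.03. The choice of genes contributes to this, since a gene in which library 4 ran against its group would not have been called.

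**Figure D4:**
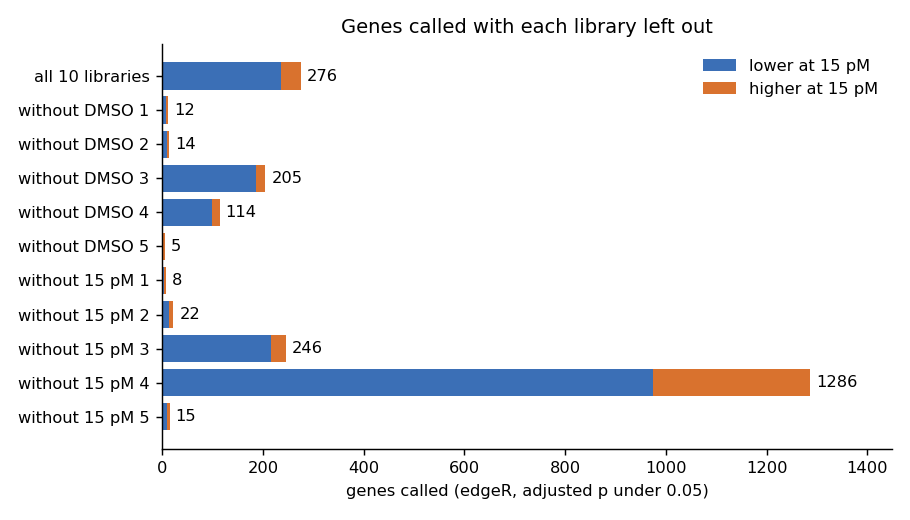
Bars give the number of genes called at 15 pM against DMSO with all 10 libraries and with each library left out, blue for lower and orange for higher, with the total beside each bar. Leaving out 15 pM library 4 raises the total from 276 to 1286, and leaving out any other library lowers it, to between 5 and 246.

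Leaving out library 4 changed how many genes passed, and the share of rises among them went from 14.5% to 24.3%. Without it 1010 further genes were called, 738 lower and 272 higher, and 721 of the 995 that had been tested with it already had an unadjusted p under 0.05. The added genes were chosen in libraries that both fits share, which by itself raises that number. Their median standard error was 0.35 with library 4 and 0.27 without it, and the median log2 fold change of the added falls was -1.08 with it and -1.39 without it. Over all 15313 genes the sign of the fold change turned in 16% when library 4 was left out. Among genes called without it, both fits tested 961 lower and 310 higher ones, and the sign turned in 10 of these. Their choice by the other 15 pM libraries nearly fixes that low number.

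The other libraries moved the number the opposite way. Dropping DMSO library 1, 2, 3, 4 or 5 gave 12, 14, 205, 114 and 5 genes. Dropping 15 pM library 1, 2, 3 or 5 gave 8, 22, 246 and 15. Of the genes called, 3 that rose and 2 that fell passed in all 10 of these fits. All 276 genes kept their sign in every fit, which their choice by the same contrast nearly fixes, since the groups do not overlap in 231 of the 236 falls and in all 40 rises. At a threshold of 0.10, chosen after the data were seen, the 10 libraries gave 560 falls and 142 rises, and leaving out any library but 15 pM library 4 left between 215 and 649 genes.

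The groups were also compared by whether their CPM values overlapped, which needs no model of the spread. In 637 genes (4.16%) all 15 pM libraries lay below all DMSO libraries and in 315 (2.06%) above, together 6.22% of the genes tested. Of the genes called, 231 of 236 falls and all 40 rises were among them, by the same contrast. Without library 4, over the same genes, 1300 (8.49%) lay below and 740 (4.83%) above, together 13.3%. Leaving out any other single library gave 672 to 923 genes below and 350 to 481 above. Fewer libraries overlap less often by themselves. The 9 other leave-outs all still hold library 4, so they can understate how much that adds. The part of it in the rise without library 4 was not tested.

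The genes called without library 4 were chosen without its own values. In the 974 genes that fell in the other 9 libraries, library 4 had a median log2 deviation of -0.505 from the DMSO mean, and the other 15 pM libraries one of -1.33, -1.76, -1.16 and -1.2. It was below the DMSO mean in 73.5% of them, against 51.8% of all genes tested, and below every DMSO library in 50.5%, against 35.9%. In the 312 genes that rose, its median deviation was 0.02, and the other 15 pM libraries had 0.66, 0.70, 0.76 and 0.77. It was above the DMSO mean in 51.3%, against 48.2% of all genes tested. The median near 0 came from deviations both ways, with 10th and 90th percentiles of -1.6 and 1.44. Library 4 was above every DMSO library in 38.8% of the 312 and below every one in 38.8%. Over all genes tested these shares were 32.7% and 35.9%. The DMSO libraries that helped choose these genes are also those library 4 is measured against, which by itself moves it toward the side of its group, and the shares over all genes do not carry that choice. These values are therefore a description and do not show how far library 4 shared the change.

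**Figure D5:**
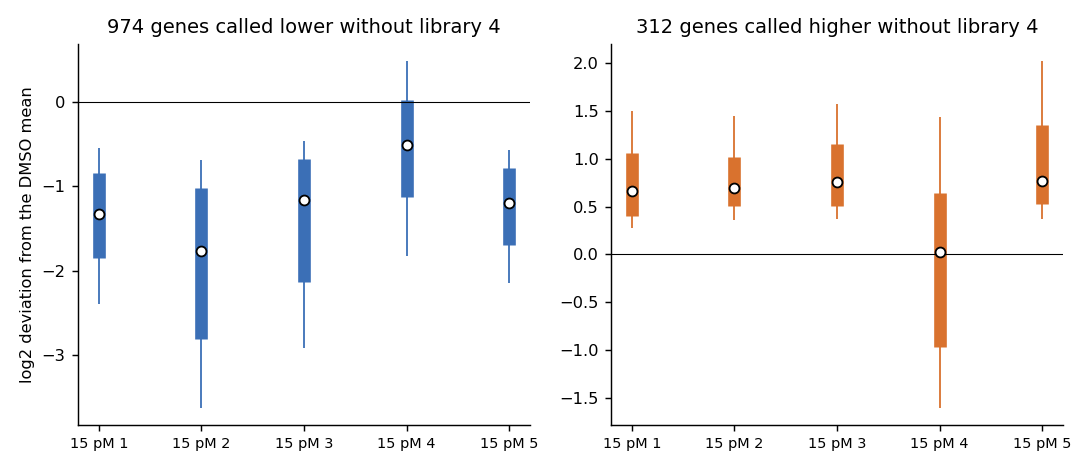
Log2 deviation of each 15 pM library from the DMSO mean in the 974 genes called lower (left) and the 312 called higher (right) without library 4, with circles for medians, thick bars for the 25th to 75th and thin lines for the 10th to 90th percentile of genes. Library 4 was not used to choose the genes, and its medians lie at -0.505 and 0.02, nearer to 0 than those of the other libraries, which were used. On the right its thin line runs from -1.6 to 1.44.

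The same description was made for each 15 pM library in turn, with genes at an unadjusted p under 0.05 in the fit without it. Left-out libraries 1, 2, 3 and 5 lay below the DMSO mean in 95.4%, 96.3%, 92.5% and 94.6% of the genes lower in the rest, and library 4 in 65.6% of 2400. For the higher genes these shares were 84.8%, 74.8%, 79.4% and 81.7%, and library 4 had 49.2% of 1691. Shares over all tested genes lay between 48.2% and 51.8%. All 5 of these descriptions share the DMSO libraries that chose the genes, which raises each share. The shares over all genes carry no such choice, so the 5 libraries are set beside each other only. Library 4 had the lowest share in both directions, but its gene sets were not like the others. Fits without library 1, 2, 3 or 5 still held library 4 and gave 1445 to 1607 lower and 974 to 1089 higher genes. The 15 pM libraries kept in the fit had median log2 deviations of -0.979 to -0.963 and 0.537 to 0.629 in those sets. In the sets for library 4 these were -0.873 and 0.458. The part of this in its lower shares was not tested.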

How the data were processed

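The members and lists were chosen with earlier results of these data known. Per the labels' protocols, libraries were made with the TruSeq RNA kit v2, a kit without strand information. Tools named in the submitters' processing notes, without their roles, are STAR 2.4.1d, featureCounts 1.4.6-p4 and CASAVA 1.8.2. Not given in the sources used here are the genome build, the annotation and how reads mapping to several genes were treated, so values of near-identical, overlapping or antisense genes are uncertain. The authors deposited whole-number read counts per gene, not normalized, for 26739 identifiers, with no row lacking one. The authors also deposited RPKM values. The check used 105783 values (over 200 counts, RPKM above 2). Library totals taken in turn down the rows gave 1 gene length within 0.2% in 100% of them. Lengths from each library's own total came within 0.2% of that same length in 7.54%. Whether own totals gave 1 length of their own was not tested. With totals taken in turn, only 6.67% of the deposited RPKM values were divided by their own library's total. The others are mis-scaled, by factors between 0.622 and 1.61. RPKM served only for gene lengths and as an alternative, both as deposited and recomputed with each library's own total.

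Counts of the 10 libraries were tested with edgeR 4.0.16 in R 4.3.3 (TMM factors, quasi-likelihood F-test, 1 mean per group, no covariate). filterByExpr (minimum count 10) kept 15313 genes, which held 99.9% of counts. P-values were adjusted by Benjamini-Hochberg over all genes tested, at a threshold of 0.05. The fit was checked on simulated counts, in which no library was made to stand apart as 15 pM library 4 does. Standard errors are the fold change over the square root of F. CPM uses the TMM factors of the 10 libraries (of all 15 for 150 pM values). Log2 CPM has a prior count of 2, and positions of library 4 use log2 of CPM plus 0.1. Pairs of libraries within a group differed by 46.8 to 847 times sampling variance, so none was taken as a copy. Library-level values were compared with exact permutation tests, whose smallest p is 0.00794 for 5 against 5.

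Named genes were, in each direction, the called gene with the largest fold change among those with a mean of at least 5 CPM and the called gene with the highest mean CPM. Gene lists and cell type markers could not be applied, since no identifier has a symbol. Alternatives used limma 3.58.1 and DESeq2 1.42.0, other scalings and filters, a replicate block and each library left out.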

Additional observations from a re-analysis of the deposited data

Results flagged for a closer look

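Among 38 groups of 5 values examined, 6 had a highest or lowest library far from the rest, and chance flags about 1 in 20. The median correlation of 15 pM library 4 with its group was 0.847, against 0.95 to 0.961 for the other 15 pM libraries. It was the highest of the 10 libraries in 4032 genes, against 1097 to 1847 in the rest of its group. The total of DMSO library 1, 35672589 counts, stood above the 25160285 to 27649168 of the other controls. Nfu_g_1_023228 reached 188 CPM in 15 pM library 1, against 13.4 to 62.8 CPM in the others. Nfu_g_1_005810 was at 94.1 CPM in DMSO library 1, against 115 to 119 CPM in the other controls. Nfu_g_1_012951 was at 2.4 CPM in 15 pM library 4, against 0.0384 to 0.41 CPM in the others.

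In the 150 pM libraries, which the comparison did not use, Nfu_g_1_005810 stood at 139 CPM in the lowest library, above the 96 to 120 CPM of all DMSO libraries scaled together with them.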

How the results depend on the processing

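The number of called genes (276, with 40 higher and 236 lower) depended on the libraries and the tool. Leaving out 1 library gave 5 to 1286 genes (3 to 312 higher, 2 to 974 lower), 1286 without 15 pM library 4. All 15 libraries in 1 fit gave 667 genes (83 higher, 584 lower), and 1373 (289 and 1084) without library 4. DESeq2 gave 1303 (391 and 912) and limma voom with quality weights 1321 (350 and 971). Chosen after the data were seen, DESeq2, limma voom and library totals without library 4 gave 2362 (760 and 1602), 1174 (284 and 890) and 1300 (119 and 1181), and a threshold of 0.10 gave 702 (142 and 560). No filter left 181 (19 higher). Library totals in place of TMM left 13 higher genes. Limma on deposited RPKM left 12 and 10 higher genes with pseudocounts of 0.1 and 1, and on recomputed RPKM 26 and 22, with 371 and 368 lower. RLE factors, upper-quartile factors, robust edgeR, limma voom and a filter of 1 CPM in 5 libraries stayed within 1.5 times of each count. Library totals moved the median fold change of all genes without library 4 from 0.02 to -0.12 (log2), and deposited RPKM plus 0.1 moved that of the 10 libraries from 0.06 to -0.12. The cause of these moves was not tested.

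The 2 groups share the numbers 1 to 5. Same-numbered deviations correlated at -0.0525 to 0.12, 1 of 5 above 0.1, and 0 of 10 libraries correlated best with their own number. These values gave no sign that the numbers pair the samples. With 5 pairs, of which 1 holds the divergent library 4, they cannot exclude a shared tank, family or batch. With a replicate block edgeR called 1 gene (1 higher, 0 lower, with 1494 lower at an unadjusted p under 0.05), and 5 (4 and 1) with number 4 left out of both groups. Leaving out that number without a block gave 916 (172 and 744).

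Non-overlapping genes numbered 1022 to 2040 with 1 library left out (350 to 740 higher, 672 to 1300 lower). The difference in long against short genes ran from -0.191 to -0.132 (adjusted exact permutation p from 0.0476 to 0.0952), in the number of genes at 1 CPM from -504 (without DMSO library 4, adjusted exact permutation p = 0.0714) to -262, and in the share of the 10 most abundant genes from 0.74 to 2.17 points. No named gene changed sign in its 31 alternatives, which the choice of these genes by the same contrast nearly fixes.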
